A study of Mus musculus with 11 samples.

Results

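The genes described here are 39 genes of the cell division cycle and of DNA replication, out of 29955 gene symbols in the RNA-seq tables of an immortalised line of mouse inguinal white fat preadipocytes (im-scWAT). Their names come from a fixed list that was drawn up with earlier results of these data known. The list of 40 symbols was matched to the sense-strand rows of the tables, and in each sample the row that the tables mark as representative of the gene was read. The symbol Cdc2a had no row, and it is an older name of Cdk1, which was found. All 39 genes were measured in all 11 samples, and the least covered of them in any sample, Ttk, rested on 51121 mapped bases, so none was lost to a filter on low values. By role, 4 are G1/S cyclins and transcription factors, 5 are enzymes of S phase, 8 license replication origins, 12 are mitotic cyclins, kinases, checkpoint and exit factors, and 10 belong to the spindle, the centromere, the chromosomes or cytokinesis.

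The study asked how the histone demethylase JMJD1A (gene Kdm3a) takes part in the making of beige adipocytes. All 11 samples came from one line of preadipocytes immortalised by retroviral SV40 large T antigen, so the controls carry large T as well. Induction medium held insulin, T3, dexamethasone, IBMX and indomethacin, and the ROS arm also received 0.5 µM rosiglitazone (ROS), a ligand of PPARγ. Untransduced cells gave 2 samples at day 0, both before ROS was added, and 1 sample each with ROS and without ROS at day 4 and at day 8. The transduced samples carried a short hairpin against mouse Jmjd1a (sh-mJmjd1a) together with human JMJD1A, and were all collected at day 8 with ROS. The wild-type protein had 2 samples (WT A and WT B). The others had 1 each and carried S265A, in which the serine phosphorylated by protein kinase A is replaced, S265D, which mimics that phosphorylation, or S265D-H1120Y, in which the iron-binding site of the demethylase is changed too. The labels and the study's methods differ on when ROS was withdrawn before day 8. Nothing states that samples of one group came from separate cultures, so the p-values below measure the spread between these samples. Between samples treated alike that spread may be technical. In the fit over days it also holds any difference between samples with and without ROS.

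As background, a dividing cell licenses its replication origins in G1 by loading the MCM helicase with the help of Cdc6 and Cdt1. It enters S phase when cyclin E with its kinase inactivates the retinoblastoma family and frees E2F, and it then turns on a later set of genes, through B-MYB and FOXM1, that builds the spindle and drives mitosis. Preadipocytes in culture are known to leave the cycle when they differentiate, often after a short round of division. Large T antigen binds the retinoblastoma family and p53, and cells that carry it can keep making E2F-driven transcripts when other cells would stop.

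The values are FPKM, the mapped bases on a transcript per kilobase of exon and per megabase of mapped bases in the sample, so levels of different genes can be compared per length. Libraries held between 3.10 and 5.29 Gb of mapped bases (median 4.64). Kdm3a, the target of the hairpin, had an FPKM of 21.1 in untransduced cells at day 8 with ROS, 20.4 and 17.9 in WT A and WT B, 13.0 in S265A, 23.0 in S265D and 28.5 in S265D-H1120Y. Reads of the human sequence were not separated from it, so it is no check of the knockdown. Of 10 adipocyte markers, 9 passed the test upward at day 4, and their summed FPKM was 282 and 285 at day 0 and from 12174 to 37657 at days 4 and 8, whereas 10 preadipocyte and fibroblast markers summed to 3489 and 3685 at day 0 and to between 633 and 1546 later. The summed FPKM of 6 macrophage markers was 2.80 and 2.82 at day 0, 0.602 to 4.43 at days 4 and 8 and 5.13 to 22.0 in the transduced samples, where Cd68 made up most of it and reached 21.7, and Emr1, Itgam and Mrc1 stayed under 0.1 throughout. That of 5 endothelial markers was 0.422 and 0.483, then 0.358 to 1.06, and 1.02 to 4.02 in the transduced samples, where Pecam1 reached 3.47, while Cdh5 and Tie1 stayed under 0.1. The lymphocyte markers summed to at most 0.207 in any sample. The 5 mural and muscle markers summed to 131 and 140 at day 0 and to between 3.62 and 14.4 at days 4 and 8. In the transduced samples they summed to between 5.43 and 7.52, and Myod1 and Myog stayed under 0.1 throughout. The part of other cell types in the results for the time course and for the transduced samples was not tested. In bulk RNA, fewer dividing cells and less RNA per dividing cell cannot be told apart.

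Letters near the transcription start differed between most licensing promoters and most mitotic and spindle promoters, but did not separate all 5 groups. Promoters of 32 of the 39 genes were found in RefSeq (build GRCm38.p6, not the mm9 build of the expression tables), in a window of 250 bases before to 50 bases after the start, and those of Aurkb, Ccna2, Ccne2, Foxm1, Kif20a, Mcm4 and Tpx2 were not analysed here. Letters of 3 kinds were searched on both strands: E2F sites spelled TTTCGCGC, TTTGGCGC or TTTCCCGC (the first and second of which can overlap), the cell cycle homology region (CHR) spelled TTTGAA, and the CCAAT box spelled CCAAT. An E2F spelling was present in 6 of 7 licensing promoters (85.7%), in 1 of 18 mitotic and spindle promoters (Cdk1) and in 1.91% of all 27025 promoters. By contrast, TTTGAA was present in 13 of 18 mitotic and spindle promoters (72.2%), in 1 of 12 promoters of licensing and S phase enzymes (Mcm2) and in 18.1% of all promoters. CCAAT accompanied TTTGAA in all 13 of those promoters, and in 1925 of the 4893 promoters with TTTGAA among all 27025. Counted by itself, CCAAT was in 88.9% of the mitotic and spindle promoters and 71.4% of the licensing promoters. It was also in 60% of the promoters of S phase enzymes and 37.9% of all promoters. None of the 3 E2F spellings and no TTTGAA was in the 5 promoters of S phase enzymes. The 2 G1/S promoters found (Ccne1 and E2f1) held no E2F, TTTGAA or CCAAT match. This says only that these letters were absent from this window. The window used the first start listed for each symbol, which need not be the start of the measured transcript. A match is a description of letters, not a measured binding site.

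Upstream sequences of 3 licensing genes are shown because they carry the E2F spelling, each as the 180 bases before the start, 5′ to 3′ on the gene's strand, with every searched E2F, CHR and CCAAT match in capitals. They lie at chr8:75109329-75109508 (plus strand) for Mcm5, chr1:128359706-128359885 (minus strand) for Mcm6 and chr11:98907971-98908150 (plus strand) for Cdc6.
Mcm5: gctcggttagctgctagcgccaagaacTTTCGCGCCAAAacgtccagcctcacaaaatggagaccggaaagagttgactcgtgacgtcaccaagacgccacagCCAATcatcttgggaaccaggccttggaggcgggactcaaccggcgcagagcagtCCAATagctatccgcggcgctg
Mcm6: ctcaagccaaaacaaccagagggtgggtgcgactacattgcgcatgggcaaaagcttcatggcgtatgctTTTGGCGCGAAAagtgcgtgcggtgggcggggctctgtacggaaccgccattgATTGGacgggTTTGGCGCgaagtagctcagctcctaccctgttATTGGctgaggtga
Cdc6: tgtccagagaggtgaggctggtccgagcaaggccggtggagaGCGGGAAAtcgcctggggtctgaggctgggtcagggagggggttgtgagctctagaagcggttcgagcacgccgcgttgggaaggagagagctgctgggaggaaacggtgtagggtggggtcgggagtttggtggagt
In Mcm5 the first run of capitals joins both overlapping E2F spellings on opposite strands, and Mcm6 holds that joined run followed by another E2F match nearer to the start.

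The next 6 sequences are shown, in the same way, because their genes act in mitosis and carry TTTGAA before the start. Cdk1, the catalytic partner of the mitotic cyclins, is the only one of them that also carries an E2F spelling. They lie at chr10:69352913-69353092 (minus strand) for Cdk1, chr4:118437344-118437523 (minus strand) for Cdc20, chr9:70421555-70421734 (minus strand) for Ccnb2, chr19:37376202-37376381 (plus strand) for Kif11, chr11:99024190-99024369 (minus strand) for Top2a and chr7:135716380-135716559 (minus strand) for Mki67.
Cdk1: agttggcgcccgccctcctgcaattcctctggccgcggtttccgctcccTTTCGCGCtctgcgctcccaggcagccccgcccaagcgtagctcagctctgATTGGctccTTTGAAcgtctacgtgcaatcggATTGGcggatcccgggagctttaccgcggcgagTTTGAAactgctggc
Cdc20: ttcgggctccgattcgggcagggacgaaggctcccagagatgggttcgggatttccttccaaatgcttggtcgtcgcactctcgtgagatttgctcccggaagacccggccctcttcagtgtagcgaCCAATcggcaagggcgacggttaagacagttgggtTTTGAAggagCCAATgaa
Ccnb2: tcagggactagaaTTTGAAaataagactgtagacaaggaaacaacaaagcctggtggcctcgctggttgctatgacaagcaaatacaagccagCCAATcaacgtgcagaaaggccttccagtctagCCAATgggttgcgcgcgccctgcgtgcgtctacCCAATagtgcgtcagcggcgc
Kif11: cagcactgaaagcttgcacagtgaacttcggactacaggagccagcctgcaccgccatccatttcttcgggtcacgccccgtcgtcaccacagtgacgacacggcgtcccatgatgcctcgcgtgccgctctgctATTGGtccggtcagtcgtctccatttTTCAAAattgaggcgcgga
Top2a: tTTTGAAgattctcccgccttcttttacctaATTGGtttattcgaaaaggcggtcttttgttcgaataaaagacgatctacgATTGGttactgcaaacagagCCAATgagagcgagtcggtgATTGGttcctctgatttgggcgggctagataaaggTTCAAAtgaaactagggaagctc
Mki67: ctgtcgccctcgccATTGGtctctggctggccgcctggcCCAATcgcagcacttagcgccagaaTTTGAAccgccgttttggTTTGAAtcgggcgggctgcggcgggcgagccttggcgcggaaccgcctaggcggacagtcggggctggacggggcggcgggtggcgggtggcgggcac
Other mitotic promoters, such as those of Plk1 and Aurka, have their TTTGAA just after the start, outside the stretch that is printed.

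At day 0 the most abundant of the 39 genes was Pcna, the sliding clamp of DNA polymerases, at an FPKM of 278 ± 8.9 (SD, n = 2), followed by the thymidine kinase Tk1 at 148 ± 8.2 and the helicase subunit Mcm6 at 144 ± 3.6. The least abundant was Cenpf, a kinetochore protein, at 7.20 ± 4.2. Over all samples Cenpf varied most, with a highest value 10.1 times its lowest, and E2f1, the activating E2F, varied least at 2.14 times. The 2 samples of day 0 stood less than 2-fold apart in 36 of 39 genes, and the 3 others (Cenpe, Cenpf and Mki67) were 2-fold or more higher in sample 1, as against 1.98% of all genes 2-fold or more apart in either direction. Cenpe, Cenpf, Mki67 and Top2a are the 4 members with 5000 bp of exon or more, and their median ratio of sample 1 over sample 2 was 2.22, whereas it was 0.952 in the other 35 and 1.06 in all 1682 genes of that length whose FPKM reached 1 in both day 0 samples. The part of transcript length in the results for these 4 genes was not tested.

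**Figure D1:**
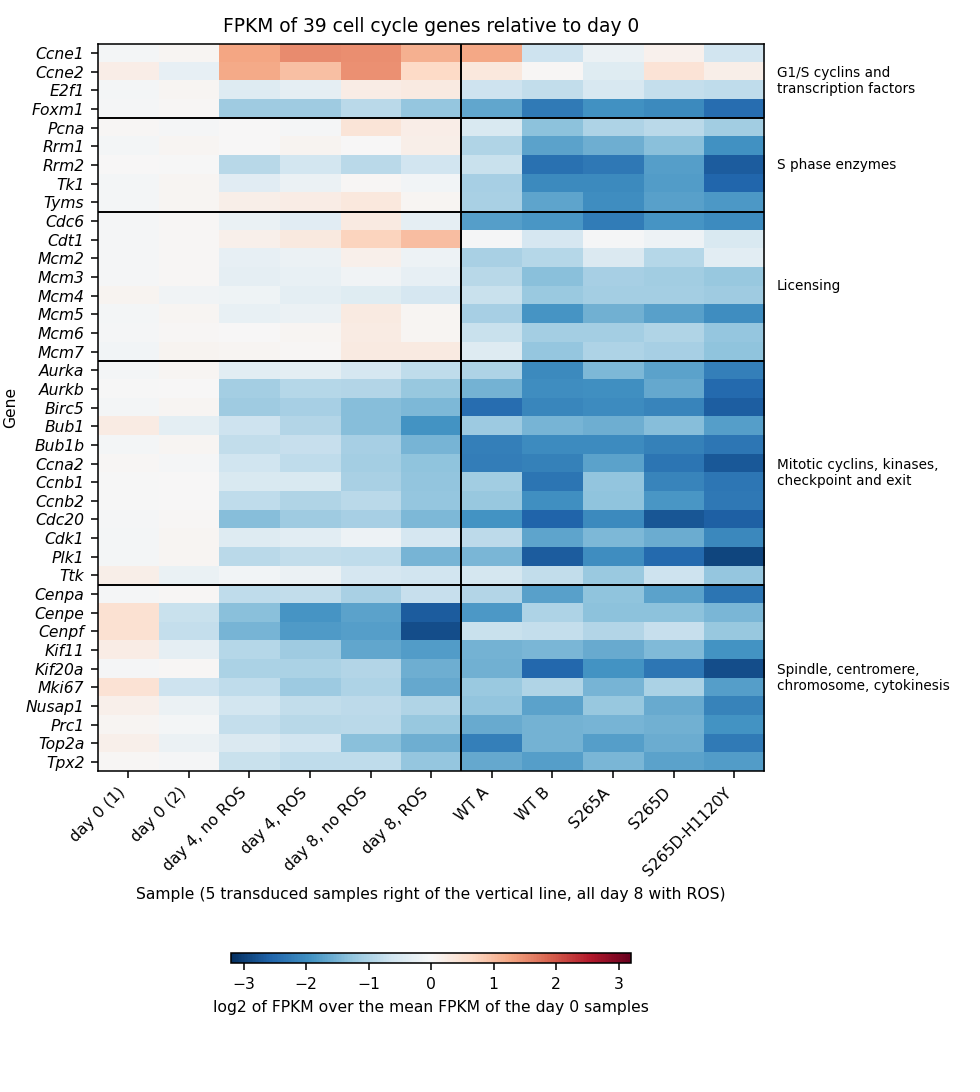
Heat map of the 39 genes (rows, in 5 groups by role) in the 11 samples (columns), coloured by the log2 of FPKM over the mean FPKM of the day 0 pair, with the 5 transduced samples right of the vertical line. Licensing and S phase rows stay pale up to day 8 without transduction, mitotic and spindle rows turn blue from day 4 on, and most rows are blue in the transduced samples.

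From day 0 to days 4 and 8, of the 22 mitotic and spindle genes 12 were called lower at day 4 and 19 at day 8, most genes that license and copy DNA had ratios near 1 and no call, and Ccne1 rose at both days. Counted over all 39 genes, 14 were called lower and 1 higher at day 4, together 38.5% of them, where 36.4% of all genes were called, 16.7% lower and 19.8% higher. At day 8 the numbers were 21 lower and 3 higher (Ccne1, Ccne2 and Cdt1), together 61.5%, where 45.6% of all genes were called, 22% lower and 23.6% higher. The median log2 ratio of (FPKM + 0.1) at day 8 over day 0 was -1.15 in the 12 mitotic cyclins, kinases, checkpoint and exit factors and -1.23 in the 10 spindle and chromosome genes, but 0.08 in the 8 licensing genes, 0.10 in the 5 S phase enzymes and -0.03 in all 16400 genes tested. Differences between these groups of genes were not themselves tested. The samples with and without ROS of a day counted as the 2 samples of that day, so any ROS effect is part of the spread behind these calls.

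In the group of G1/S cyclins and transcription factors, the cyclin E transcripts and Foxm1, which acts later in the cycle, moved in opposite directions. Ccne1, which encodes cyclin E1, had an FPKM of 13.9 and 15.0 at day 0, 41.1 with ROS and 34.5 without it at day 4, and 32.0 and 40.6 at day 8. All 4 later values were above both day 0 values, with a log2 ratio of 1.38 ± 0.19 (SE) at day 4 (adjusted p = 0.0065) and 1.31 ± 0.19 at day 8 (adjusted p = 0.00611, limma with Benjamini-Hochberg adjustment over 16400 genes, here and for all adjusted p-values). Ccne2, the gene of cyclin E2, went from 9.67 and 6.95 to 16.2 and 19.3 at day 4 and 13.0 and 22.8 at day 8, again with no overlap between day 0 and later days. Its log2 ratio was 1.10 ± 0.33 at day 4, just outside the threshold (adjusted p = 0.0511), and 1.06 ± 0.33 at day 8 (adjusted p = 0.0483). E2f1 had 30.1 and 32.4 at day 0, 25.5 and 23.4 at day 4, and 38.1 and 36.6 at day 8. Neither change passed the test (-0.35 ± 0.14 and 0.26 ± 0.14 on the log2 scale, adjusted p of 0.109 and 0.191), although the 3 pairs of values did not overlap. Foxm1, the transcription factor of late cell cycle genes, fell from 45.7 and 48.3 to 21.3 and 21.4 at day 4 and to 19.9 and 25.9 at day 8. Its log2 ratios were -1.13 ± 0.18 and -1.05 ± 0.18 (adjusted p of 0.00914 and 0.00937).

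Licensing genes, which prepare replication origins, gave 0 of 8 calls at day 4, with 0 at an unadjusted p under 0.05, and 1 of 8 at day 8. Over all 16400 genes tested, 7976 had an unadjusted p under 0.05 at day 4. Calls in either direction were made in 36.4% of all genes at day 4 and in 45.6% at day 8. Cdt1, the loader that is degraded once S phase begins, was the one that rose, from 43.6 and 46.3 at day 0 through 56.0 with ROS and 49.9 without it at day 4 to 88.4 and 73.3 at day 8. Its log2 ratio was 0.24 ± 0.17 at day 4 and 0.84 ± 0.17 at day 8 (adjusted p of 0.312 and 0.0139). Among the helicase subunits, Mcm6 had 141 and 146 at day 0, 149 and 146 at day 4 and 151 and 172 at day 8, so the day 4 values lay beside those of day 0. Mcm2 went from 128 and 137 to 115 and 110 and then to 118 and 148, overlapping day 0 at day 8. The other subunits Mcm3, Mcm4, Mcm5 and Mcm7 had log2 ratios from -0.26 to 0.04 at day 4 and from -0.46 (Mcm4, adjusted p = 0.0679) to 0.29 (Mcm7, adjusted p = 0.148) at day 8. Cdc6, the ATPase that recruits the helicase, had 16.5 and 17.2 at day 0, 13.1 and 14.6 at day 4, and 13.8 with ROS but 20.4 without it at day 8. With standard errors between 0.14 and 0.23, changes of this size were not detectable here.

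Of the 5 enzymes of S phase, only Rrm2 passed the test at either day. The share of all genes called was 36.4% at day 4 and 45.6% at day 8. Rrm2, the regulated subunit of ribonucleotide reductase, fell from 89.8 and 89.5 at day 0 to 59.9 with ROS and 48.8 without it at day 4 and stood at 58.8 and 49.5 at day 8, with a log2 ratio of -0.73 ± 0.18 at both days (adjusted p of 0.0302 and 0.0244). Its partner Rrm1, the large subunit, had 84.1 and 91.3 at day 0, 93.1 and 88.7 at day 4, and 100 and 88.7 at day 8, and it was called at neither day. Pcna had 284 and 271 at day 0, 273 and 278 at day 4, and 320 and 368 at day 8, where both values were above day 0 (0.30 ± 0.15, adjusted p = 0.145). Tk1 had 142 and 154, then 130 and 115, then 140 and 153. Tyms, thymidylate synthase, had 25.1 and 27.1, then 30.7 and 29.9, then 27.3 and 33.2. Rrm2 without a CHR or E2F match and Cdc20 with a CHR match both fell, so the letters in a promoter and the call of its gene did not go together in every case.

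**Figure D2:**
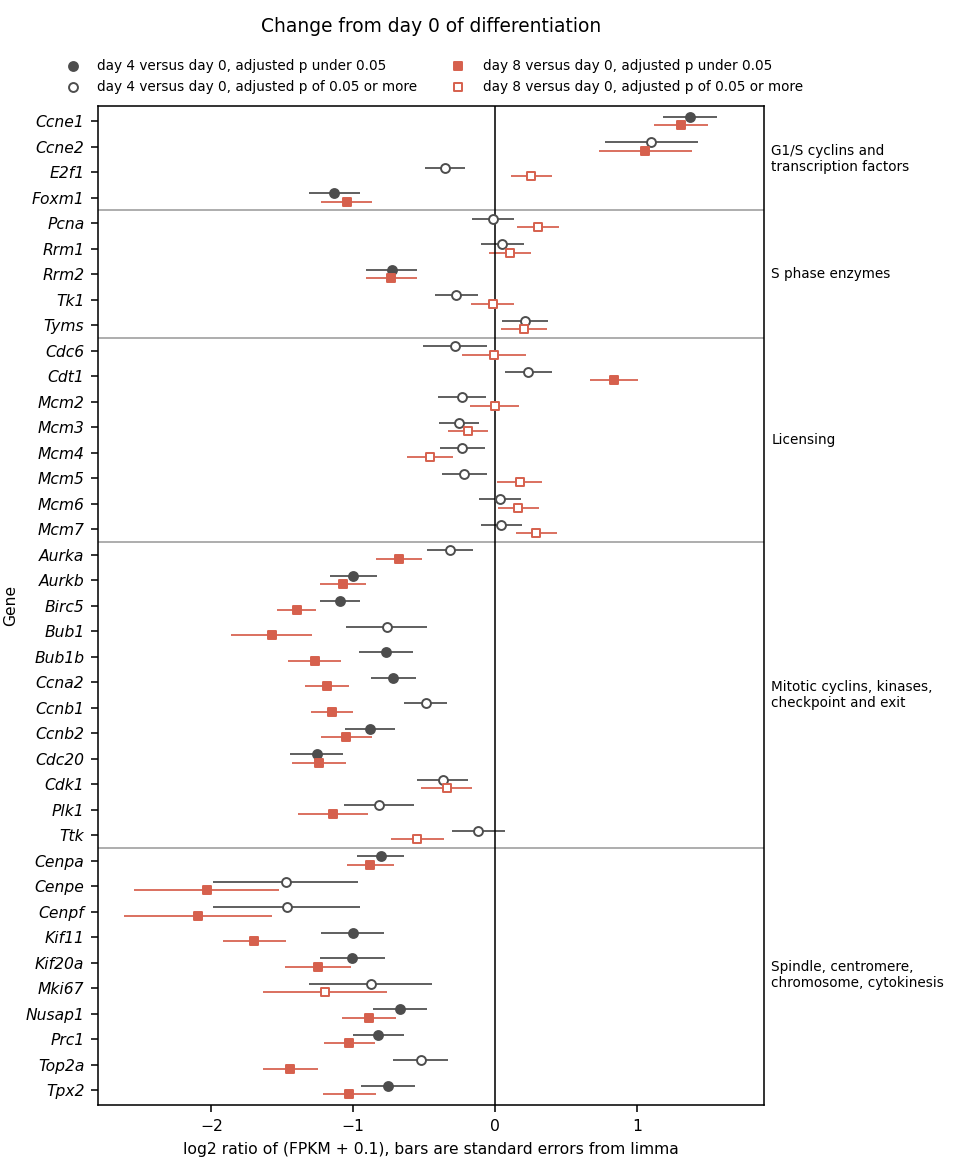
Log2 ratio of (FPKM + 0.1) at day 4 (circles) and day 8 (squares) over day 0 for each of the 39 genes, with standard errors from limma as bars and filled symbols where the adjusted p was under 0.05. Mitotic and spindle genes lie left of 0 at both days, licensing and S phase genes lie around 0 except Rrm2 and Cdt1, and Ccne1 and Ccne2 lie right of it.

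Of the 12 mitotic cyclins, kinases, checkpoint and exit factors, 6 were called lower at day 4 and 10 at day 8, and 0 were called higher. For all genes the shares were 16.7% lower and 19.8% higher at day 4, and 22% and 23.6% at day 8. Cdc20, the activator of the anaphase-promoting complex, showed the largest fall of this group at day 4, from 101 and 107 at day 0 to 47.0 with ROS and 40.1 without it, and it had 38.7 and 49.7 at day 8 (log2 ratios of -1.26 ± 0.19 and -1.24 ± 0.19, adjusted p of 0.00799 and 0.00691). Birc5, which encodes survivin of the chromosomal passenger complex, went from 49.7 and 54.1 to 24.8 and 23.7 and then to 19.2 and 20.0, a fall of 1.09 and 1.40 on the log2 scale. The kinase of that complex, Aurkb, went from 40.5 and 41.8 to 21.7 and 19.5 and then to 17.8 and 21.4. In each of these 3 genes every later value was below both day 0 values. A shorter transcript of Birc5, with 972 bp of exon, had the higher FPKM of 163 in day 0 sample 1.

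All 3 mitotic cyclins were called lower at day 8 (22% of all genes), and Ccna2 and Ccnb2 also at day 4 (16.7% of all genes). Ccnb1, cyclin B1, had 92.2 and 92.9 at day 0, 66.0 and 65.8 at day 4, and 38.5 and 45.2 at day 8, and it passed the test at day 8 (-1.15 ± 0.15, adjusted p = 0.0046) but not at day 4 (-0.49 ± 0.15, adjusted p = 0.0553). Ccnb2, cyclin B2, had 79.3 and 81.0, then 41.4 and 45.6, then 34.2 and 43.9. Ccna2, cyclin A2, went from 102 and 95.9 to 56.6 and 64.1 and then to 40.7 and 46.5. These 3 cyclins did not overlap with day 0 at either later day. The kinase that partners them, Cdk1, had 81.5 and 87.9 at day 0, 67.1 and 64.0 at day 4, and 58.6 and 76.2 at day 8, and it was not called at either day (-0.37 ± 0.18 and -0.34 ± 0.18, adjusted p of 0.167 and 0.175).

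Among the kinases and checkpoint factors, Plk1 (polo-like kinase), Aurka (the centrosomal Aurora kinase) and Bub1 (a spindle checkpoint kinase) were called lower at day 8 only, with log2 ratios of -1.14 ± 0.25, -0.68 ± 0.16 and -1.57 ± 0.29. Plk1 went from 41.9 and 46.0 at day 0 to 25.6 and 24.2 at day 4 and to 15.8 with ROS and 24.8 without it at day 8. Bub1b, the checkpoint protein BubR1, was called at both days and went from 37.4 and 40.4 to 23.2 and 22.4 and then to 13.8 and 18.6. Ttk, the checkpoint kinase Mps1, was the other member of this group besides Cdk1 without a call, at 10.3 and 7.75, then 7.97 and 8.49, then 5.90 and 6.26 (-0.55 ± 0.19 at day 8, adjusted p = 0.0615). Its day 4 values lay between those of day 0.

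All 10 genes of the spindle, centromere, chromosomes and cytokinesis were lower in both samples of day 4 and of day 8 than in both samples of day 0. This held for 38.9% of all genes at day 4 and 39.4% at day 8. Limma called 6 of the 10 lower at day 4 and 9 at day 8, where 16.7% and 22% of all genes were called lower. Kif20a, a kinesin of the cleavage furrow, had 82.1 and 85.4 at day 0, 41.6 and 41.7 at day 4, and 28.4 with ROS and 43.5 without it at day 8. Cenpa, the histone H3 variant of the centromere, went from 67.0 and 70.3 to 39.6 and 38.8 and then to 41.5 and 33.4. Prc1, which bundles midzone microtubules, went from 54.0 and 50.1 to 28.1 and 30.7 and then to 22.5 and 28.8. Tpx2, Nusap1 (both spindle assembly proteins) and Kif11 (the kinesin Eg5) were called at both days, with log2 ratios at day 8 of -1.03, -0.89 and -1.70.

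Of the 4 long transcripts in this group, Cenpe, Cenpf and Mki67 had the widest day 0 pairs and the largest standard errors of all members. Mki67, the antigen of the Ki-67 proliferation stain, had 44.8 and 20.5 at day 0, 14.5 and 18.7 at day 4, and 10.5 and 16.5 at day 8, and it was not called at either day (-0.88 ± 0.44 and -1.20 ± 0.44, adjusted p of 0.17 and 0.0731). Top2a, topoisomerase IIα, went from 157 and 122 to 91.7 and 101 and then to 46.9 and 55.2, and was called at day 8 (-1.44 ± 0.19, adjusted p = 0.00489). Cenpe, a kinetochore kinesin, went from 20.5 and 8.98 to 4.00 and 5.81 and then to 2.32 and 4.52, and Cenpf from 10.2 and 4.24 to 2.06 and 2.58 and then to 1.00 and 2.11. Both were called at day 8 (-2.03 ± 0.51 and -2.09 ± 0.52, adjusted p of 0.0269 and 0.026). Among all 1891 genes with 5000 bp of exon or more whose FPKM reached 1 in some sample, the median log2 ratio of day 8 over day 0 was -0.42, against 0.03 in 11724 shorter genes. Without the 4 long members the median of the spindle group was -0.81 at day 4 and -1.03 at day 8, with all 6 of the remaining genes called at both days.

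In 30 of 39 genes both day 4 samples lay below both day 0 samples, as against 38.9% of all genes, and in 26 of 39 both day 8 samples did, against 39.4%. Between day 4 and day 8 limma called 0 of 39 genes, and 0.11% of all genes were called. An unadjusted p under 0.05 was found in 8 of 39 genes and in 3501 of all 16400. The day 0 pair serves both comparisons, so day 4 and day 8 are not independent of each other. With the day 0 samples and the samples with ROS only, the median log2 ratio of the 39 genes was -0.58 at day 4 and -0.82 at day 8. With those without ROS only, it was -0.49 at day 4 and -0.82 at day 8. Each arm alone leaves 1 sample at each later day.

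The counts of calls from day 0 rest on few libraries. At day 4 the 15 calls became 1 without day 0 sample 1 (2.56% of members, 8.97% of all genes), 0 without day 0 sample 2 (8.63% of all genes), 2 without the day 4 sample with ROS (5.13% and 10.9%) and 2 without the one lacking it (5.13% and 13.9%). In these 4 fits a smaller share of the members than of all genes was called. At day 8 the 24 calls became 4 without day 0 sample 1 (10.3% of members, 13.2% of all genes) and 7 without sample 2 (17.9% and 14.3%), and leaving out any other library kept them between 20 and 24. The median log2 ratio of the 39 genes moved less, between -0.71 and -0.42 at day 4 and between -0.88 and -0.73 at day 8. Calls of Aurkb, Birc5, Ccna2, Ccne1, Cdc20 and Foxm1 at day 4 held in every alternative that used all 6 samples.

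Other genes of the cell cycle, 169 of them in 7 lists, were counted in the same way, with an older symbol left out where the current one also had a row. Over all genes 16.7% were called lower and 19.8% higher at day 4, and 22% and 23.6% at day 8. Of 63 further genes of mitosis, 33 were called lower (52.4%) and 1 higher at day 4, and 40 lower (63.5%) and 3 higher at day 8. Of 44 further replication genes, 7 were lower and 7 higher at day 4 (15.9% each), and 6 and 6 at day 8 (13.6% each), at or below the shares over all genes. Kif23, a partner of Prc1 at the midzone, fell from 29.8 and 24.1 at day 0 to 5.49 and 6.85 at day 4 (-2.11 ± 0.24, adjusted p = 0.00367). Mybl2, the B-MYB factor that acts with FOXM1, fell from 14.6 and 15.4 to 4.56 and 4.48 (-1.71 ± 0.15, adjusted p = 0.00199), and E2f2 rose from 2.29 and 2.37 to 10.2 and 7.67 (1.88 ± 0.20, adjusted p = 0.00334). Checkpoint and repair genes gave 4 calls lower of 19 at day 4 (21.1%) and 6 at day 8 (31.6%), with 0 higher. The list of E2F and pocket proteins gave 4 lower and 4 higher of 17 at day 4 (23.5% each) and 3 and 4 at day 8 (17.6% and 23.5%), near the shares over all genes.

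Of 8 G1 cyclins and kinases, 2 were called lower (Ccnd1 and Cdk4) and 1 higher (Ccnh, cyclin H) at day 4, and 3 lower (Ccnd1, Cdk4 and Cdk6) and 1 higher (Cdk2) at day 8. These are shares of 25% and 12.5%, and of 37.5% and 12.5%. Ccnd1, cyclin D1, fell from an FPKM of 25.8 and 26.2 at day 0 to 0.258 with ROS and 0.656 without it at day 4 (-5.65 ± 0.77, adjusted p = 0.00634) and had 0.426 and 2.36 at day 8. Its paralogs did not pass the test, with Ccnd2 at 27.7 and 26.2, then 23.1 and 18.8, then 21.7 and 16.3, and Ccnd3 at log2 ratios of 0.03 at both days. Cdk4, the kinase of the D-type cyclins, fell from 307 and 331 to 155 and 173 (-0.96 ± 0.21, adjusted p = 0.0232) and had 139 and 198 at day 8. Among the 8 CDK inhibitors, 3 were called higher at day 4 (37.5%, against 19.8% of all genes) and 4 at day 8 (50%, against 23.6%), and 0 lower. Cdkn1a (p21) went from 108 and 116 at day 0 to 240 and 204 at day 4 and 348 and 398 at day 8 (1.73 ± 0.16 at day 8, adjusted p = 0.00197). Cdkn2c (p18) went from 36.6 and 40.6 to 118 and 109 and then to 122 and 149, and Cdkn1c (p57) from 0.78 and 1.11 to 17.8 and 22.1 and then to 9.98 and 12.9. Cdkn1b (p27) was called at day 8 only, with 15.0 and 15.4 at day 0 and 32.8 and 31.3 at day 8. Cdkn2a, Cdkn2b, Cdkn2d and Cdkn3 were not called. Cdkn2a, the locus of p16 and p19ARF, was among the most abundant, with 354 and 374 at day 0 and 211 with ROS and 400 without it at day 8.

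Of the pocket proteins that large T antigen binds, Rb1 rose from 2.85 and 2.28 at day 0 to 9.53 and 9.83 at day 4 (1.89 ± 0.17, adjusted p = 0.00188) and had 8.71 and 8.06 at day 8, while Rbl1 (0.16 and -0.16) and Rbl2 (0.17 and 0.22) did not pass the test at day 4 or day 8. Trp53, its other known partner, fell from 115 in both day 0 samples to 40.4 and 43.0 at day 4 and 33.1 and 58.6 at day 8 (-1.46 ± 0.29 and -1.38 ± 0.29, adjusted p of 0.017 and 0.016). In the list of p53 and its targets, 2 genes were lower and 1 higher of 10 at day 4, and 4 lower and 3 higher at day 8, where 36.4% and 45.6% of all genes were called in either direction, so the day 4 count is no larger than that share. Mdm2 and Trp53 were lower at both days and Bbc3 was higher at both, at 2.07 and 2.88 at day 0 and 8.18 and 10.4 at day 8. Sesn2 and Gadd45a were called higher and Zmat3 and Aen lower at day 8 only. Ccng1, Bax and Phlda3 were not called at either day.

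With ROS, 20 of the 39 genes were higher and 19 lower at day 4, and 34 were lower at day 8, as most genes were. Each arm had 1 sample per day, and the spread came from the day 0 pair alone. At day 4 the median log2 ratio of ROS over no ROS was 0.00 in these genes and -0.06 in all genes. Rrm2 had the highest ratio (0.30 ± 0.07, adjusted p = 0.445) and Cenpe the lowest (-0.53 ± 0.85, adjusted p = 0.821). At day 8 the median was -0.27 in these genes and -0.20 in all genes, and the 34 lower members compare with 67.7% of all genes. Setting the sample medians of all genes equal brought the all-gene median to -0.01, and left 24 of 39 lower with a median of -0.07. Limma called 0 of the 39 genes at either day, and 0% of all genes. At day 8 the log2 ratios of the 39 genes ran from -1.01 to 0.31.

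At day 8 the members with the lowest ratio were Cenpf, with an FPKM of 1.00 with ROS and 2.11 without it, and Cenpe, with 2.32 and 4.52. Ccne2 followed, with 13.0 and 22.8 (-0.81 ± 0.34, adjusted p = 0.278), then Plk1 with 15.8 and 24.8 (-0.65 ± 0.12, adjusted p = 0.137). Cenpa (41.5 and 33.4), Cdt1 (88.4 and 73.3) and Rrm2 (58.8 and 49.5) were higher with ROS. On simulated data with 200 genes changed 4-fold, this fit recovered 0 of them at day 8, whereas the fit of day 4 against day 0 recovered 147 of 200 with 5 false calls. The lack of calls for ROS therefore says nothing about changes up to 4-fold. The change of the ROS ratio between day 4 and day 8 gave 0 calls as well and 0% of all genes. Its median on the log2 scale was -0.25 in these genes and -0.13 in all genes.

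**Figure D3:**
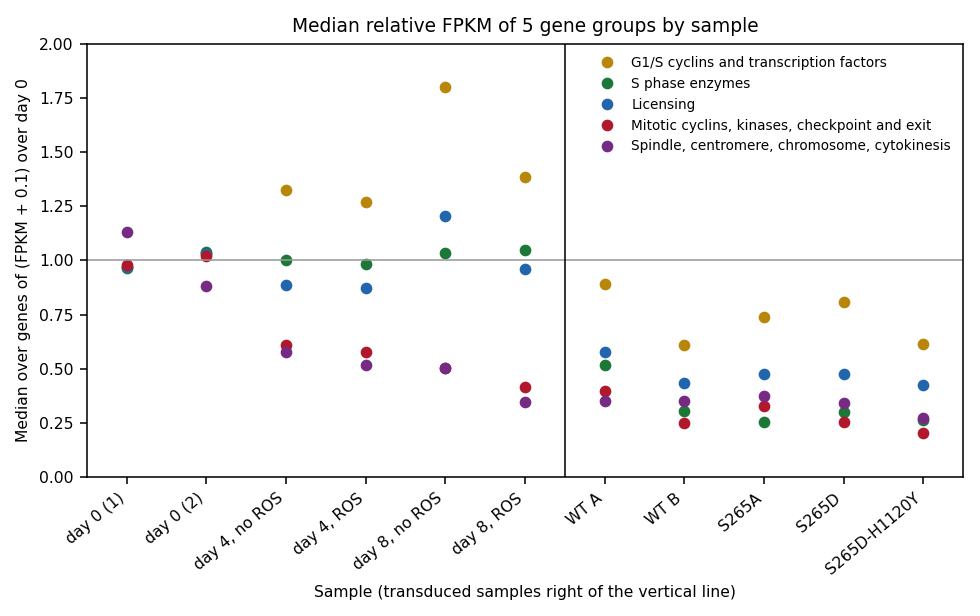
Median over the genes of each role of (FPKM + 0.1) relative to the day 0 mean (vertical axis, starting at 0) in each of the 11 samples (horizontal axis), with transduced samples right of the line. The mitotic and spindle groups lie between 0.34 and 0.61 at days 4 and 8, whereas licensing and S phase enzymes lie between 0.87 and 1.21 there and between 0.25 and 0.58 in the transduced samples.

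In the transduced adipocytes, most of the 39 genes had lower values than in untransduced cells at day 8 with ROS. All 8 licensing genes and all 5 S phase enzymes were lower in each of the 5 transduced samples than in the untransduced sample at day 8 with ROS. Over all members this held for 27 of 39, as against 22.5% of all 17075 genes tested, and for 25 of 39 when both untransduced day 8 samples were considered, against 16.7%. The opposite, with all 5 samples above it, held for Bub1, Cenpe and Cenpf, against 27.9% of all genes. Mcm5 had an FPKM of 85.1 in the untransduced sample, 39.6 in WT A, 22.3 in WT B, 28.4 in S265A, 24.5 in S265D and 20.8 in S265D-H1120Y. Tk1 had 140 in the untransduced sample, 70.3 and 36.3 in WT A and WT B, and 36.1, 43.1 and 25.4 in the mutants in that order. Cdc6 had 13.8 and then 5.00, 4.65, 3.56, 4.53 and 4.14. In these 3 genes each transduced sample lay below the untransduced one, and WT A was the highest of the transduced samples.

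WT over untransduced cells gave a median log2 ratio of -1.42 in the 5 S phase enzymes, -1.04 in the 8 licensing genes, -0.59 in the 12 mitotic cyclins and kinases and -0.32 in the 10 spindle genes, with 0.06 in all genes. Limma called 0 of 39 genes and 0% of all genes, with 1 untransduced sample in the comparison. For Cdc6 the log2 ratio was -1.49 ± 0.19. The median over the 39 genes was -0.68. Taking each WT library by itself gave -0.39 (WT A) and -1.0 (WT B). In genes with 5000 bp of exon or more the median ratio of WT over untransduced was 0.40 on the log2 scale, against -0.02 in shorter genes. Transduction, the hairpin, the human protein and the making of these samples apart from the time course cannot be told apart here.

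**Figure D4:**
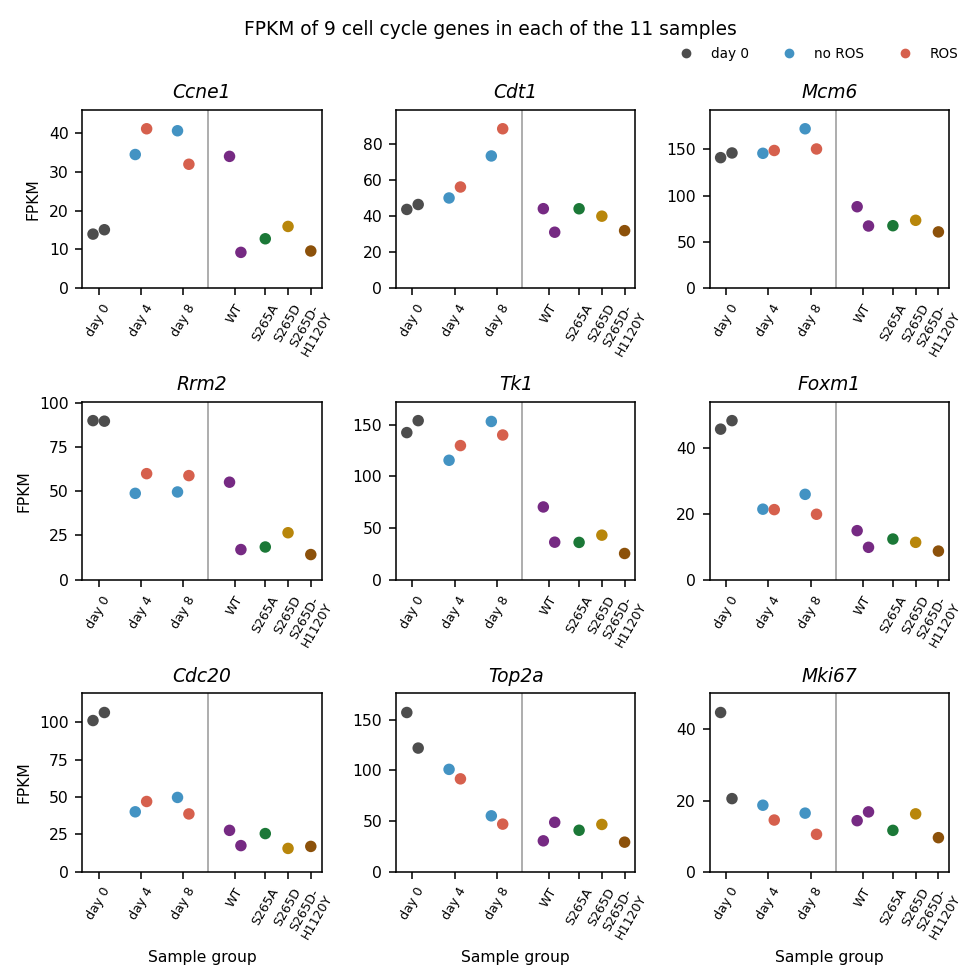
FPKM (vertical axes, linear from 0) of 9 genes in each of the 11 samples, with day 0 in grey, samples without ROS in blue, samples with ROS in red and the transduced samples right of the vertical line, where WT A is drawn left of WT B. Ccne1 and Cdt1 are above day 0 in the later untransduced samples, Cdc20, Foxm1, Top2a and Rrm2 are below it, and Mcm6 and Tk1 have their lowest values in the transduced samples.

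WT A and WT B are lettered as replicates in the labels, but nothing states whether they belong to one experiment or served as controls of separate ones, so each mutant is also set against each WT sample. WT B lay below WT A in 30 of 39 genes, as against 45.5% of all genes, and WT A was 2-fold or more above WT B in 5 genes, against 8.9% of all genes. Ccne1 had 34.0 in WT A and 9.19 in WT B, a ratio of 3.70. Rrm2 had 55.0 and 17.0, Ccnb1 42.9 and 18.2, Plk1 15.9 and 6.90, and Aurka 23.9 and 11.7. In the other direction, Cenpe had 4.14 and 7.49 in that order, and Top2a 30.4 and 48.8. WT A was the highest of the 5 transduced samples in 26 of 39 genes, against 29.7% of all genes.

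S265A lay between WT A and WT B in 22 of 39 genes, or 56.4%, which is near the 52% of all genes. It was below both in 9 of 39, against 22.3% of all genes, and above both in 8 of 39, against 24.5% of all genes. S265D lay between them in 32 of 39, or 82.1%, against 54.7% of all genes. It was below both in 4 of 39, namely Ccna2, Cdc20, Cdc6 and Tyms, against 20.6% of all genes. The median log2 ratio of S265A over WT was 0.03, but with one WT library at a time it was -0.35 (WT A) and 0.25 (WT B), so its sign depended on the WT sample. For S265D the median was -0.08, or -0.26 (WT A) and 0.12 (WT B). The 5 S phase enzymes were all lower in S265A than in the WT mean (median -0.48), led by Rrm2 (18.5 in S265A, -0.73 ± 0.94) and Tyms (6.54, 12.8 for WT A, 8.07 for WT B). Of those 5, Pcna, Rrm1 and Rrm2 were higher in S265A than in WT B. At the other end were Mcm2, with 96.7 in S265A and 64.8 and 69.8 in the WT pair (0.52 ± 0.39), and Ccna2, with 30.4 and 21.3 and 22.0 (0.48 ± 0.38). Limma called 0 of 39 genes and 0% of all genes for either mutant, every adjusted p of these genes was 1, and 0 of 39 had an unadjusted p under 0.05. On 1 simulated data set of 13582 genes, against 16402 in the fit itself, 0 of 200 genes changed 4-fold were recovered. The lack of calls therefore says nothing about such changes.

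Among the wider lists the lowest log2 ratios of S265A over WT were those of Cenpk (-0.77 ± 0.38), Kif20b (-0.72 ± 0.42) and Cdc7 (-0.70 ± 0.39), and the highest those of Cdkn3 (1.26 ± 0.57), Recql4 (1.20 ± 0.44) and Cdkn2b (0.75 ± 0.68), each with an adjusted p of 1. Recql4, a helicase of replication, had 14.3 in S265A and 5.29 and 7.15 in the WT pair, and it was highest of all in S265D-H1120Y at 25.1. Cdkn3, a phosphatase of cyclin-dependent kinases, had 20.8 in S265A and 6.47 and 11.6 in WT A and WT B.

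S265D-H1120Y had the lowest values of the transduced samples in 27 of 39 genes, as against 23.6% of all genes, including 10 of 12 mitotic cyclins, kinases, checkpoint and exit factors and 9 of 10 spindle genes. It was lower than S265D in 37 of 39, against 54.6% of all genes, with a median FPKM ratio of 0.767. Rrm2 went from 26.5 in S265D to 14.2 in S265D-H1120Y, Tk1 from 43.1 to 25.4, Aurkb from 13.2 to 7.34 and Mki67 from 16.2 to 9.55. The exceptions were Mcm2, with 70.6 and 104, and Cdc20, with 15.6 and 16.9. The median log2 ratio was -0.38 in these genes and -0.05 in all genes, yet limma called 0 of 39 and 0% of all genes, each adjusted p of these genes was 1, and 0 of 39 had an unadjusted p under 0.05, with 1 sample on each side and the spread taken from the WT pair. In other lists the median log2 ratio of this comparison was -0.51 over 11 adipocyte marker symbols (Plin and Plin1 being one gene) and 0.51 over the 10 genes of the p53 list, with Gadd45a at 60.4 in S265D and 145 in S265D-H1120Y and Sesn2 at 23.4 and 56.8. Their part in the lower cell cycle values was not tested.

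Across the 11 samples most of the 39 genes correlated with the mean of the others. The median log2 value of the members relative to day 0 was between -0.82 and 0.03 in the untransduced samples. In the transduced samples it was between -1.93 and -1.07. The part of this offset in the correlations was not tested. The Pearson correlation of log2(FPKM + 0.1) of a gene with the mean of the other 38, a description over samples that share a library each, was highest for Plk1 (0.982), Mcm4 (0.979) and Aurka (0.977). It was lowest for Cenpf (0.0419), Ccne2 (0.290), Cenpe (0.302), Ccne1 (0.437) and Cdt1 (0.513). Of 13576 other genes that reached an FPKM of 1 in some sample, the 10 most like the mean of the members were Ccnf (0.991), Melk, Cdh2, Sart3, Spc24, Nuf2, Exo1, Usp21, E2f7 and Incenp (0.984). Of these, Ccnf, Melk, Spc24, Nuf2, Exo1, E2f7 and Incenp are on the wider cell cycle lists. Cdh2 (N-cadherin), Sart3 and Usp21 are not.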

How the data were processed

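The authors sequenced TruSeq libraries of im-scWAT cells (Illumina), aligned the reads with BWA to UCSC mouse transcripts and to the mm9 genome, realigned them locally with their own program and deposited strand-specific FPKM per transcript. The deposited tables repeat the FPKM as log10 and log2 values, which were not used, and the deposited coverage of each transcript, its mapped bases, gave the depth. Since no read counts were given, count models were not applied. Tables hold 1 sample each, with no pooling.

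Genes were read as the representative sense row. The members and all gene lists were chosen with earlier results of these data known. The test was limma 3.58.1 in R 4.3.3, applied to log2(FPKM + 0.1), which understates changes of low genes, over genes that reached an FPKM of 0.1 in a sample of the fit, with Benjamini-Hochberg adjustment and calls at an adjusted p under 0.05. The fit over days 0, 4 and 8 had 3 residual degrees of freedom, the ROS fit and the fit of the transduced samples 1 each, and the fit of WT against untransduced cells 2. All members, the CDK inhibitors, D-type cyclins, pocket proteins and p53 targets are named, besides the 3 lowest and 3 highest of the wider lists at day 4 and in S265A and the 10 genes most like the members. The fits for day 4, for ROS at day 8 and for S265A were each tested on 1 simulated data set. It held genes that reached an FPKM of 1 in some sample. Alternatives changed the pseudocount, the minimum FPKM, the transcript, the scaling, the variance model, the samples and the WT library. Python 3.11.15 with pandas 2.3.3 made the tables and matplotlib 3.10.9 drew the figures.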

Additional observations from a re-analysis of the deposited data

Results flagged for a closer look

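Antisense reads, which no comparison above uses, made up more of the mapped bases than in the libraries as a whole at 4 of the 39 genes. Over the sense and antisense rows together, the antisense share was 5.37% at Ccne2, 4.05% at Ccna2, 2.98% at Kif20a and 2.88% at Nusap1. Over all genes of a library this share went from 1.52% to 2.27%. At the other 35 genes it did not exceed 2.27%. These shares are over all 11 samples, and their source was not tested.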

How the results depend on the processing

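With no minimum FPKM the calls among the 39 genes went from 15 to 6 at day 4 and from 24 to 15 at day 8. These were 15.4% of members and 10.1% of all genes at day 4, and 38.5% and 14% at day 8. Leaving out 1 library at a time gave 0 to 19 calls at day 4, 4 to 24 at day 8 and 0 between day 4 and day 8, with median log2 ratios from -0.707 to -0.422, from -0.880 to -0.729 and from -0.284 to -0.00112. With the ROS arm only, chosen after seeing the data, the medians were -0.581, -0.821 and -0.281, and with the arm lacking ROS only they were -0.819 at day 8 and 0.0228 between day 4 and day 8. Equal sample medians gave -0.0331 between day 4 and day 8, and 0.0469 and -0.0654 for ROS at day 4 and day 8. A single ROS term over both days gave -0.138. Pseudocounts of 0.01 and 1, a minimum FPKM of 1, the transcript with the highest mean, an intensity trend and group means left the counts within 1.5 times, and no call changed its direction in any setting. With group means, 38.5% of members and 43.7% of all genes were called at day 4, and 48.7% and 51.8% at day 8. Leaving out a library of the ROS fit leaves no residual degree of freedom, so no such test was run. No paired analysis was possible because the replicate numbers do not pair samples across groups, apart from the ROS arms of days 4 and 8. Days 4 and 8 do share the ROS arms, which a fit of day with a ROS term uses. That fit gave 19 calls at day 4 (48.7% of members, 44.9% of all genes) and 24 at day 8 (61.5% and 53%). Between day 4 and day 8 it gave 0 (0.854% of all genes). Depth was 3.10 to 5.29 Gb of mapped bases per library, and every condition but day 0 and WT had 1 sample.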
